A study of Mus musculus with 4 samples.

Results

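The miR-30 family was followed across 4 microRNA (miRNA) arrays of mouse mast cells. Members were every array probe whose name carries miR-30a, miR-30b, miR-30c, miR-30d or miR-30e, with the 5p and 3p arms kept apart and star-named and mismatch probes left out. This gave 7 probes of the 785 perfect-match miRNA probes on each array, and all 7 were named for human and 0 for mouse: miR-30a-5p, miR-30b, miR-30c, miR-30d, miR-30e-5p, miR-30a-3p and miR-30e-3p. The sources used here do not give the probes' own sequences. The arrays held total RNA of 4 groups with 1 array each. Every difference below is between single arrays, has no replicate behind it and could not be tested. Bone-marrow-derived mast cells (BMMC), primary cells grown in interleukin 3 and the KIT ligand stem cell factor (SCF), were profiled after SCF starvation and after SCF at 100 ng per cc. P815, a mast cell line grown without cytokines whose KIT mutation the labels give as D814V, was profiled without and with imatinib, a kinase inhibitor that acts on KIT, at 10 nM. Both treatments lasted 24 h. BMMC are a culture from marrow and P815 is 1 line, and both P815 groups carry the mutation. Neither KIT activity nor its inhibition was measured on these arrays. Active KIT below is only a name for BMMC with SCF and P815 without imatinib. Inactive KIT is likewise only a name for BMMC without SCF and P815 with imatinib.

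MicroRNAs are short RNAs that guide Argonaute proteins to messenger RNAs, mostly by pairing of the seed, bases 2 to 8 from the 5′ end, and so lower the output of their targets. The 5p arms of the miR-30 family share 1 seed and are therefore expected to bind overlapping targets. miR-30a is known to repress the autophagy protein Beclin 1 in human cells, and the family to repress the epithelial-to-mesenchymal regulator Snai1 in mouse hepatocytes. The 3p arms come from the other strand of the same hairpins and have another seed. Messenger RNAs were not measured, so no target is described here.

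The mature mouse sequences show which members the array could be asked to separate. RefSeq's GRCm38.p6 table gave them for miR-30a, miR-30c and miR-30e, and not for miR-30b and miR-30d. The seed is in capitals in the 5p arms below, all written 5′ to 3′. miR-384-5p, from a hairpin outside the family, is shown because it holds the same seed.
miR-30a-5p: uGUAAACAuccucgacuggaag
miR-30c-5p: uGUAAACAuccuacacucucagc
miR-30e-5p: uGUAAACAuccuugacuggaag
miR-384-5p: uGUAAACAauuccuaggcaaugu
Of 1679 mature miRNAs in that table, these 4 hold GUAAACA as bases 2 to 8. The 3 family members share their first 12 bases. miR-30a-5p and miR-30e-5p differ at 1 of 22 bases, C13U, counted from the 5′ end with the miR-30a base first, and miR-30c-5p differs from miR-30a-5p at 5 of the first 22. The 2 3p arms on the array also differ at 1 base, G18A, which is in capitals here.
miR-30a-3p: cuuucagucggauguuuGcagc
miR-30e-3p: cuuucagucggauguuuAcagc

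The genes lie in pairs. miR-30a-5p (chr1:23272274-23272295, plus strand, GRCm38.p6) and the first of the 2 loci of miR-30c-5p (chr1:23291714-23291736, plus strand) are neighbours, with 0 other genes of the reference table between their hairpins. The other miR-30c-5p locus (chr4:120769584-120769606, minus strand) neighbours miR-30e-5p (chr4:120772660-120772681, minus strand), and both lie within the span of Nfyc, which encodes a subunit of the transcription factor NF-Y. Exon or intron placement within Nfyc was not analysed here. The genes Mir30b and Mir30d are neighbours on chromosome 15. The miR-30c-5p loci give the same 23-base RNA, so the array cannot assign its signal to a locus.

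Each array also held 604 mismatch probes, named as copies of miRNA probes with 2 mutations, whose median was 295.75 and 277.25 on the BMMC arrays (SCF absent, then present) and 203.0 and 180.0 on the P815 arrays (imatinib absent, then present). In their own processed table the authors left a probe blank where its intensity was under 1.5 times that median. A probe above this limit is called listed. Listing limits were 443.625, 415.875, 304.5 and 270.0 in the same order. Because arrays differed in brightness, differences are given on the log2 scale after quantile normalization over the 4 arrays, beside the intensities themselves. A difference counted as 2-fold when it reached 1 on that scale. The background of every count was the mouse miRNAs that either array of the comparison lists.

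Of the 7 members, 2 were listed on all 4 arrays (miR-30b and miR-30c), miR-30d on 3, miR-30a-5p on the 2 BMMC arrays only, and 3 on none. For scale, 389 mouse miRNAs had a probe, and 128 of them besides miR-30b and miR-30c were listed on all 4 arrays. The share of members listed throughout was thus near that of all mouse miRNAs. miR-30b had intensities of 8710.5 in BMMC starved of SCF, 7522.5 after SCF, 701.5 in untreated P815 and 1142.75 after imatinib. miR-30c read 4622.5, 3964.25, 703.5 and 1206.0 in the same order of groups. Both were highest in the BMMC arrays, lower in P815 with imatinib and lowest in P815 without it. miR-30d read 1937.0 and 1381.0 in BMMC without and with SCF, then 234.25 in untreated P815 and 311.75 after imatinib. miR-30d was thus in the same order of arrays, but it fell below the listing limit in P815 without imatinib. miR-30a-5p read 842.25 and 591.0 in BMMC and 218.75 and 195.0 in P815, the last 2 under the limit. Without replicates, no spread shows whether neighbouring arrays in these orders differ.

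miR-30e-5p, 1 base from miR-30a-5p, was listed on no array. Its intensities were 269.25 and 287.75 in BMMC without and with SCF, and 166.5 and 142.0 in P815 without and with imatinib. miR-30a-3p read 436.25, 305.75, 260.25 and 218.25, and miR-30e-3p 372.25, 319.75, 238.5 and 207.5, in BMMC without and with SCF and P815 without and with imatinib. These 3 members lay under the listing limit on every array, so differences are described only for the other 4. miR-30a-3p came close in BMMC without SCF, at 436.25 against a limit of 443.625. The listed signal of the family therefore came from 5p arms or from probes named without an arm (miR-30b, miR-30c and miR-30d).

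**Figure D1:**
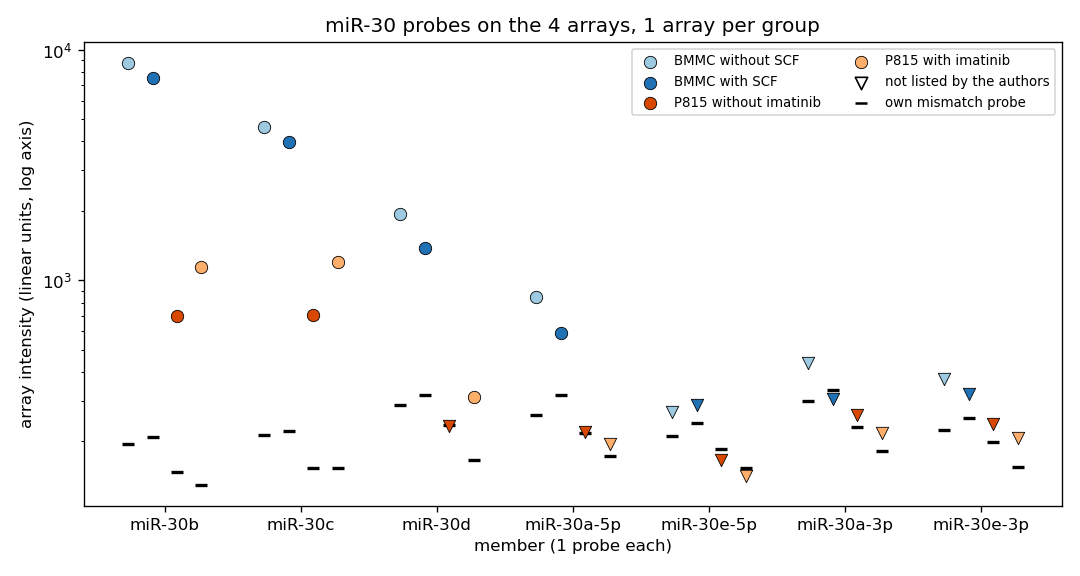
Array intensity (linear units on a log axis) of the 7 miR-30 probes on the 4 arrays, 1 array per group, with triangles for values under the authors' listing limit and dashes for the member's own mismatch probe. miR-30b falls from 8710.5 and 7522.5 in BMMC to 701.5 and 1142.75 in P815, while miR-30e-5p and both 3p arms lie under the limit everywhere.

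The mismatch probes show how far each signal depended on the matched sequence. They cannot show whether a probe also bound a family member of similar sequence, which was not tested. Counts of members treat each probe as its own miRNA. The miR-30b probe read 44.6 and 36.0 times its own mismatch probe in BMMC without and with SCF, and 4.76 and 8.82 times in P815 without and with imatinib. For miR-30c the ratios were 21.7, 17.8, 4.57 and 7.88. The miR-30b mismatch probe itself ranged only from 129.5 to 209.0 over the 4 arrays. For miR-30d the ratio was 6.70 and 4.33 in BMMC, 0.995 in P815 without imatinib and 1.87 with it. Its matched probe read 234.25 in P815 without imatinib, against 235.5 for its mismatch probe, so no matched signal was detectable there. For miR-30a-5p the ratio was 3.23 and 1.86 in BMMC, and 1.01 and 1.13 in P815. Among the members listed nowhere, miR-30e-5p stayed between 0.898 and 1.28, miR-30a-3p between 0.915 and 1.45, and miR-30e-3p between 1.20 and 1.65. Ratios well above those of the unlisted members were seen for miR-30b and miR-30c on all 4 arrays, for miR-30d on both BMMC arrays and for miR-30a-5p in BMMC without SCF. The 1.86 of miR-30a-5p with SCF and the 1.87 of miR-30d with imatinib lay near the 1.65 of miR-30e-3p. Unlisted probes outside the members reached the same ratios in BMMC without SCF. These were 1.86 for the star-named miR-30e probe and 1.87 for the human-named miR-384 probe.

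The comparison of P815 without imatinib with BMMC with SCF set the 2 cell types against each other in the groups named here as active KIT. All 4 listed members were lower in P815. miR-30b had a normalized log2 level of 10.15 in P815 and 12.27 in BMMC, a difference of -2.11 or 4.33-fold, and its intensity was 10.7-fold lower. miR-30c, at 10.17 against 11.34, was 2.25-fold lower after normalization and 5.64-fold lower in intensity. miR-30d differed by -2.47 and was at least 3.40-fold lower, a bound because its P815 value was not listed. miR-30a-5p differed by -1.16, and its bound was only 1.20-fold. Of the 196 mouse miRNAs in this comparison, 11 had a lower value than miR-30b and 46 a lower value than miR-30c.

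Read against the other miRNAs, 4 of 4 listed members were at least 2-fold lower, where 59 of the 196 were (30.1%). miR-30d and miR-30a-5p entered only through BMMC. Their intensities therefore had to be lower in P815, and their normalized values were favoured to be lower. Over miR-30b and miR-30c, listed on both arrays, both were past 2-fold. With every difference taken at its bound, 3 of the 4 members were, against 18.9% of the mouse miRNAs. The median of the listed members was -1.64, beside -0.08 over all 196. In RNA from whole cultures, fewer cells with a miRNA and less of it per cell cannot be told apart. Virus and worm probes, most with no known matching RNA in mouse cells, had an SD of 0.90 in this comparison. The differences of miR-30b and miR-30c, the members listed on both arrays, were larger than that SD. Those probes ranged from -2.04 to 1.84, however, and 15% of them were at least 2-fold lower. The -1.17 of miR-30c lay inside that range and the -2.11 of miR-30b just below it.

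P815 with imatinib against BMMC without SCF repeated the cell type comparison in the groups named here as inactive KIT, on the 2 other arrays. Again the 4 listed members were lower in P815. miR-30b differed by -1.64 (10.26 against 11.90 on the log2 scale), or 3.11-fold, and by 7.62-fold in intensity. miR-30d was listed on both arrays and differed by -1.59, with levels of 8.37 and 9.96, and by 6.21-fold in intensity. miR-30c differed by -0.69, or 1.61-fold, and by 3.83-fold in intensity. miR-30a-5p differed by -1.15 and was at least 1.42-fold lower. Of the 4, 3 were 2-fold lower, where 15.1% of 259 mouse miRNAs were. miR-30a-5p entered only through BMMC, and with every difference at its bound 2 of the 4 were, against 12% of the mouse miRNAs. Virus and worm probes had an SD of 0.56 and ranged from -1.05 to 1.38. The median was -1.37, beside -0.08 over all.

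For reference, 3 other miRNA groups known to be low in P815 from earlier results of these data were set beside the family, with no test between them. In P815 without imatinib against BMMC with SCF, the clusters of miR-23, miR-24 and miR-27 had 5 of 5 members 2-fold lower and a median of -1.55. The families of miR-26, miR-103 and miR-107 had 4 of 4 and a median of -2.38. The let-7 and miR-98 family, a large group known for restraining growth genes, had 4 of 9 and a median of -0.52. Every listed member of these 3 groups was listed on both arrays, unlike miR-30d and miR-30a-5p. Because these groups were chosen as already low in P815, their medians below 0 were set by that choice. They serve only as a scale for the miR-30 values.

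Fewer blood cell markers were listed in P815, where fewer probes of all kinds were listed. Of 802 entries per array, 483 and 321 were listed in BMMC without and with SCF. In P815 without and with imatinib, 274 and 318 were. miR-142-3p, miR-142-5p and miR-223, miRNAs typical of blood lineages, were all listed on both BMMC arrays, and of the 3 only miR-142-5p was listed in P815. Their summed intensity was 2615.0 and 1771.0 in BMMC without and with SCF, and 729.75 and 730.25 in P815 without and with imatinib. The P815 arrays were also dimmer as a whole, the median mouse miRNA lying at -1.30 without scaling in the comparison named active KIT. After quantile normalization the 3 markers ranged from -2.30 to 0.46 in that comparison, and 0 of them were 2-fold lower at the bound. Of 10 miRNAs typical of other cells, 6 and 3 were listed in BMMC without and with SCF, and 3 and 2 in P815 without and with imatinib. Their summed intensity was 6732.5, 4641.75, 3334.75 and 3435.0 in that order. miR-206 and miR-122a, typical of muscle and liver, were listed on all 4 arrays, while miR-133a, miR-133b, miR-451 and miR-150 were listed on none. The part of these markers in the miR-30 difference was not tested.

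**Figure D2:**
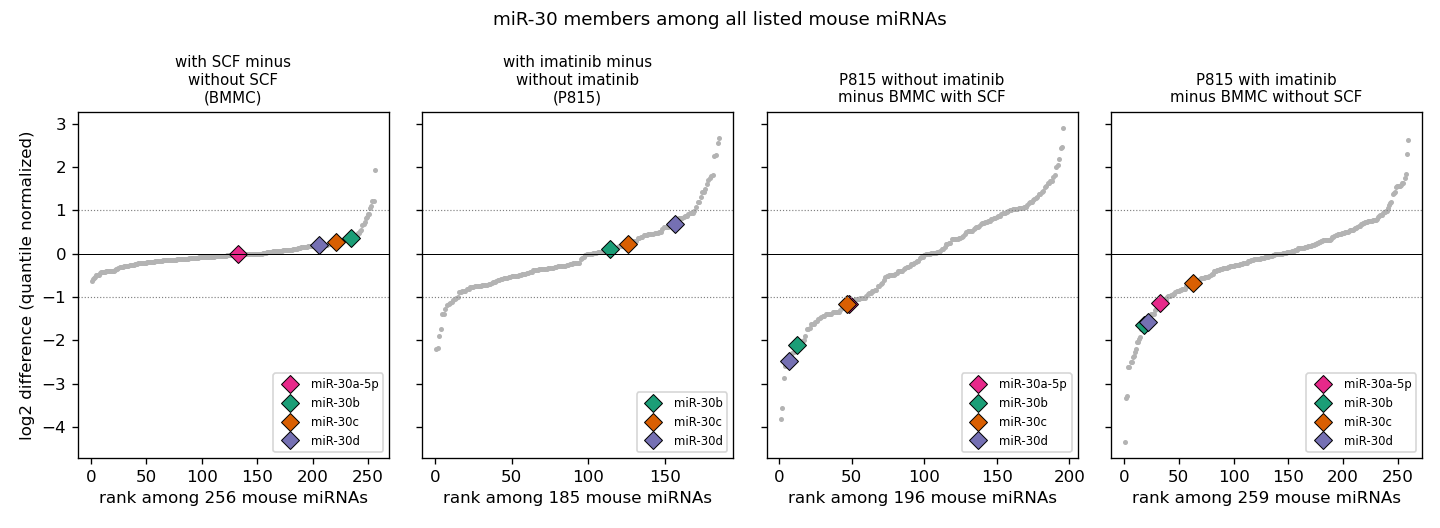
Quantile-normalized log2 difference of every listed mouse miRNA (grey points, ranked from lowest to highest) in the 4 comparisons, with the listed miR-30 members as diamonds and dotted lines at 2-fold. Members lie below 0 in both P815 against BMMC comparisons, and in the third panel 11 of 196 miRNAs lie lower than miR-30b (-2.11) and 46 lower than miR-30c (-1.17), whose diamond covers that of miR-30a-5p (-1.16), and the -2.47 of miR-30d rests on a P815 value that was not listed.

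The comparison of P815 with and without imatinib asked what follows when the mutant line meets a KIT inhibitor. The intensities of miR-30b and miR-30c were higher on the array with imatinib, by 1.63-fold and 1.71-fold. miR-30d was listed with imatinib only, at 311.75, against 234.25 under the limit without it. In intensity, the mismatch probes of these members were no higher with imatinib. They read 147.5 and 129.5 for miR-30b, 154.0 and 153.0 for miR-30c, and 235.5 and 167.0 for miR-30d, without and with imatinib. After quantile normalization the log2 differences shrank to 0.11 for miR-30b and 0.21 for miR-30c. On that scale the mismatch probe of miR-30c differed by 0.38, more than its matched probe, and those of miR-30b and miR-30d by -0.06 and -0.55. miR-30d lay at 0.69, but it was not listed without imatinib and with imatinib it lay no higher than the dimmest probe listed on the untreated array, so no fold can be given.

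Of the 3 listed members 0 were 2-fold apart, where 8.65% of 185 mouse miRNAs were 2-fold higher and 7.57% 2-fold lower with imatinib. The family median was 0.21, beside -0.22 over all 185. Virus and worm probes had an SD of 0.64, larger than the differences of miR-30b and miR-30c. miR-30c kept its positive sign under each of the 7 processing settings, between 0.14 and 0.89. miR-30b ranged from -0.14 with cyclic loess to 0.82 with median centring. The direction for miR-30b thus depended on the scaling. miR-30a-5p was not listed on either P815 array, and its intensity was 218.75 without and 195.0 with imatinib.

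The comparison of BMMC with and without SCF asked about the ligand in primary cells. The intensities of the 4 listed members were lower with SCF, by 1.16-fold for miR-30b, 1.17-fold for miR-30c, 1.40-fold for miR-30d and 1.43-fold for miR-30a-5p. The array as a whole was dimmer too, with a median over the mouse miRNAs of -0.61 without scaling. After quantile normalization miR-30b was higher by 0.37, miR-30c by 0.27 and miR-30d by 0.19, and miR-30a-5p lay at -0.02. The sign for miR-30b, miR-30c and miR-30d therefore turned with the scaling, being positive under 5 of 7 settings. It was negative in the authors' processed table and where arrays were not scaled.

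None of the 4 was 2-fold apart, where 1.95% of 256 mouse miRNAs were 2-fold higher and 0% 2-fold lower. The difference of miR-30b exceeded the SD over virus and worm probes, 0.31, and those of the other 3 did not. All 4 lay inside the range of those probes, -0.81 to 1.41, and 21 mouse miRNAs lay higher than miR-30b. The mismatch probes went the other way to their matched intensities: the miR-30b mismatch probe read 195.5 without and 209.0 with SCF, the miR-30d one 289.0 and 319.0, and the miR-30a-5p one 261.0 and 318.5. Measured against its own mismatch probe, each listed member was lower with SCF, by a log2 ratio of -0.31 for miR-30b, -0.28 for miR-30c, -0.63 for miR-30d and -0.80 for miR-30a-5p. No direction with SCF can be given for the family that holds on every scale.

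Subtracting the median of all listed mouse miRNAs removes any shift common to an array, so median centring, 75th percentile scaling and no scaling give the same value by construction. The family median minus the median of all listed mouse miRNAs lay between 0.19 and 0.27 with SCF under the 7 settings, and between 0.23 and 0.57 with imatinib. For P815 against BMMC it lay between -1.82 and -1.40 in the comparison named active KIT. In the comparison named inactive KIT it lay between -1.61 and -1.29. These settings reuse the same 4 arrays and do not measure the noise of an array.

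**Figure D3:**
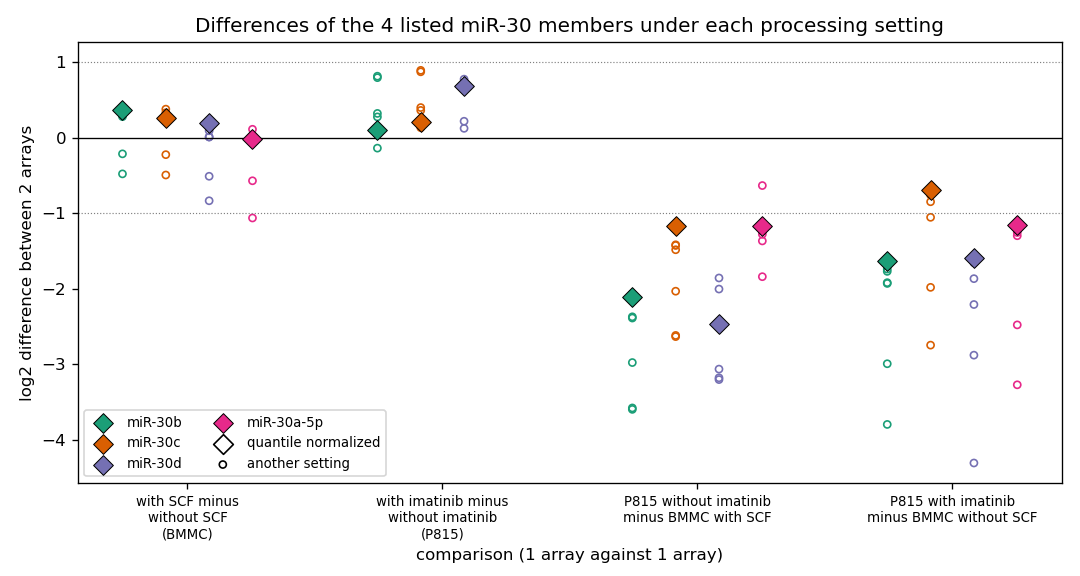
Log2 difference of the 4 listed members in the 4 comparisons, with diamonds for quantile normalization and open circles for the 6 other settings (fewer where the authors' table gave only a limit), and dotted lines at 2-fold. Every point for P815 against BMMC lies below 0, while the SCF points of miR-30b, miR-30c and miR-30d fall on both sides of 0.

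The star-named probe of miR-30e and the probes named miR-384 added no listed signal. A mouse-named probe for the star strand of miR-30e, the older name of its 3p arm, read 410.0 and 291.25 in BMMC without and with SCF, and 219.25 and 171.75 in P815 without and with imatinib, and was listed nowhere. Its log2 differences and those of the human-named miR-30e-3p probe were apart by 0.36 with SCF and 0.23 with imatinib. For P815 against BMMC they were apart by 0.02 in the comparison named active KIT and 0.61 in that named inactive KIT. Both probes named miR-384, with no arm given, were also listed on no array, at 264.0 or less. Among the perfect-match miRNA probes, no other star-named probe of miR-30a to miR-30e was present.

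The miRNAs with the most similar course over the 4 arrays were then sought among the 128 other mouse miRNAs listed on every array. Likeness was the root mean square difference between log2 values centred on each miRNA's own mean, against the median profile of miR-30b and miR-30c. The nearest were miR-140* (0.16), let-7a (0.17), miR-23a (0.19), miR-222 (0.20) and let-7c (0.21). miR-30b and miR-30c each lay 0.24 from their own median, and the median of the 128 was 0.88. What these profiles have in common over 4 arrays is the step between BMMC and P815.

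**Figure D4:**
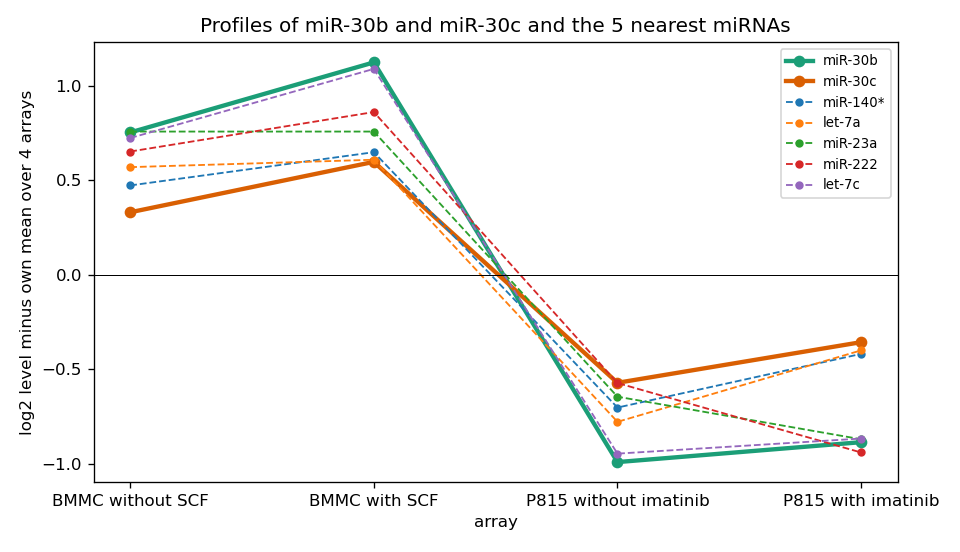
Log2 level minus each miRNA's own mean over the 4 arrays (y axis) by array (x axis), with thick lines for miR-30b and miR-30c and dashed lines for the 5 nearest miRNAs. Each line is above 0 in both BMMC arrays and below 0 in both P815 arrays, from 1.12 for miR-30b in BMMC with SCF to -0.99 in P815 without imatinib.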

How the data were processed

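Total RNA, 10 mcg per array, was labelled with Cy3 by RNA ligase, per the labels' protocols. Per the file headers, the authors deposited 1 linear intensity per probe, the mean of foreground medians, with no background column; the sources used here do not name the array maker or scanner. An array carried 1406 probes: 785 for miRNAs, 604 mismatch and 17 control probes. The authors' deposited processed table, also intensities, equalled the array intensity minus the array's mismatch median for all listed values, with the treated arrays multiplied by 0.834 (BMMC with SCF) and 0.628 (P815 with imatinib), so cell types were scaled separately. Its blanks matched the 1.5-fold rule in all 802 entries of each array. Columns without a sample numbered 0.

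Intensities were corrected with limma 3.58.1 (R 4.3.3, normexp, offset 50), log2-transformed and quantile-normalized over the miRNA probes of the 4 arrays. The steps were run on 2 simulated arrays with raised and lowered probes in balance. Only the direction of the median estimates was required to be right, and unbalanced changes were not simulated. Mismatch probes were placed on each array's own map. One probe stood for each of 389 mouse miRNAs, mouse-named first, then human-named, then rat-named, where the RefSeq table holds a mouse gene so named. Where 1 of 2 arrays was not listed, a bound was the listed value over the higher of the other array's lowest listed value and the probe's own. Alternatives were median centring, 75th percentile scaling, cyclic loess, no scaling, mismatch subtraction, the authors' table, human-named probes first, and 2 detection filters. The number of arrays limits the precision.

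Members and lists were chosen with earlier results of these data known. Named miRNAs were all members, fixed reference lists and the 5 nearest profiles.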

Additional observations from a re-analysis of the deposited data

Results flagged for a closer look

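miR-30b and miR-30c, listed on all 4 arrays, went opposite ways in the groups named active KIT. Each was higher in BMMC with SCF than without, and lower in P815 without imatinib than with it. The log2 difference with active KIT was 0.37 in BMMC and -0.11 in P815 for miR-30b, and 0.27 and -0.21 for miR-30c. The gap between the systems was 0.48 for miR-30b and 0.48 for miR-30c. miR-30d lay at 0.19 and -0.69, a gap of 0.89, but it was not listed in P815 without imatinib, so its P815 value and the gap have no measured size or direction. The gaps were not tested, since each group has 1 array. Of the 177 mouse miRNAs listed on at least 1 array of each system, 81 (45.8%) also had opposite signs. Without scaling the SCF differences were -0.21 for miR-30b and -0.22 for miR-30c, so that both then went the same way in both systems. The same held in the authors' processed table (-0.48 and -0.49 with SCF) and for the ratio to the own mismatch probe (-0.31 and -0.28). With cyclic loess miR-30b also went the same way, being higher with SCF and lower with imatinib.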

How the results depend on the processing

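Results were recomputed under 9 alternatives, and for single members also as a ratio to the own mismatch probe, an alternative chosen after seeing the data. The family median with SCF (0.23) turned to -0.37 without scaling and -0.66 in the authors' processed table, where 1 member, miR-30a-5p, was 2-fold apart in place of 0. By member with SCF, no scaling gave -0.21 for miR-30b, -0.22 for miR-30c and -0.51 for miR-30d, the authors' table -0.48, -0.49 and -0.83, and the mismatch ratio -0.31, -0.28 and -0.63. miR-30a-5p (-0.02) turned to 0.034 with median centring and 0.11 with cyclic loess. With imatinib, miR-30b (0.11) turned to -0.14 with cyclic loess. For P815 against BMMC no sign turned. The median with active KIT (-1.64) moved to -2.85 without scaling and -2.90 in the authors' table, and the count of 4 fell to 2 with detection on both arrays, which leaves 2 members. The median with inactive KIT (-1.37) moved to -2.68, -3.54 and, with no detection filter and all 7 members, -0.69. Without scaling the median mouse miRNA itself lay at -0.61 with SCF, 0.35 with imatinib, and -1.30 and -1.29 in the cell type comparisons. The median with imatinib (0.21) became 0.82 with median centring, 0.80 without scaling and 0.029 with no detection filter. The count with active KIT fell from 4 to 3 with 75th percentile scaling. With inactive KIT the count of 3 became 4 with cyclic loess, without scaling and in the authors' table, and 2 with detection on both arrays. The authors' table scaled the cell types separately and gave no value for miR-30d with imatinib. Members have 1 probe each, so probe choice changed nothing for them. Leaving out replicates was not possible, and no paired analysis was possible because each group has 1 array. miR-30d and miR-30a-5p in P815 are limited by signal at background.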
